A study of Mus musculus with 28 samples.

Results

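The genes of the RUNX family of transcription factors, of their common partner subunit CBFβ and of the zinc finger factor ThPOK were followed in CD4+ T cells cultured towards the Th9 fate with and without TGF-β receptor I. The 5 genes were Runx1, Runx2, Runx3, Cbfb and Zbtb7b (which encodes ThPOK), out of 24089 genes in the deposited RPKM table. They were taken by name, without a filter on their values but with earlier results of these data known. RPKM counts reads relative to gene length and to library size, so that levels of genes of different length can be set side by side.

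RUNX proteins bind DNA through a runt domain that recognises the core TGTGGT, and CBFβ, which does not bind DNA itself, joins them and strengthens the binding. In the thymus Runx3 with CBFβ installs the CD8 cytotoxic programme and silences Cd4 and Zbtb7b, whereas ThPOK is needed for the CD4 helper fate and opposes RUNX activity. Runx1 acts throughout T cell development, and Runx2 is best known as the master regulator of bone formation. RUNX factors are also known to form complexes with the SMAD proteins that carry the TGF-β signal.

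All cells came from Tgfbr1 f/f Ert2-cre+ mice on a C57BL/6 background, with both sexes used in the study, so that every group carried the floxed receptor gene and the inducible Cre. Mice had received tamoxifen to delete Tgfbr1 in the cells that express the Cre (KO) or oil as the control (WT), and the deletion and the tamoxifen itself therefore cannot be told apart. Naïve CD4+ CD62L+ cells were purified with magnetic beads and stimulated through CD3 and CD28 with medium alone (control) or with added TGF-β, added IL-4 or both cytokines together. RNA-seq covered these 8 groups with 3 replicates each (24 libraries), and DNase-seq, which maps open chromatin as DNase I hypersensitive sites (DHSs), covered control and TGF-β + IL-4 in each genotype with 1 library each.

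The column headings of the RPKM table conflict with the read counts of a supplementary table of the study, and the columns were therefore read by position, in the order of the library numbers. That order is WT then KO, and within each genotype replicate by replicate, each as a run of control, then TGF-β, then IL-4, then both cytokines. All WT RNA libraries thus precede all KO ones, and anything in their handling that followed this order cannot be told apart from the genotype. The supplementary counts list 8 WT libraries. For 8 of 8 the table column whose undetected genes matched best was the one at the position of the library number, and in only 2 of 8 did that column also carry the library's own heading. The other 4 WT columns and the 12 KO columns could not be checked in this way. Both readings put the same 12 columns in each genotype, but the culture and the replicate of most columns differ between them. As headed, none of the 5 genes was called in any of the 15 comparisons made here.

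Sequencing depth, estimated from the smallest steps between RPKM values, was 0.575 to 1.20 times that of the first WT control library, with a median of 0.846. Runx3 and Zbtb7b values were whole multiples of 1 such step in every library (to within 0.01 of a read) and rested on 322 to 1021 and 281 to 1006 reads. For Runx1, Runx2 and Cbfb no such whole multiples were found, so the reads behind their values are not given. The defining T cell markers were high in every library (the 6 genes Cd3d, Cd3e, Cd3g, Cd28, Lat and Thy1 summed to 1192 to 1662 RPKM), and Cd4 was 75.6 to 122 RPKM. Of the B cell markers, Ms4a1 was 0.705 to 3.34 RPKM in WT and 0.533 to 3.05 in KO, Cd79a was 1.97 to 9.77 and 1.62 to 4.91, and Cd79b was 3.12 to 16.4 and 3.17 to 15.3. Summed myeloid markers, mostly Lyz2, were 2.71 to 18.4 and 0.232 to 10.1. The mean level of Tgfbr1 transcript over 3 replicates was 3.20 ± 0.15 RPKM (SD) in WT control, 14.1 ± 0.32 after TGF-β and 19.2 ± 1.6 after both cytokines, and its level in the 12 KO libraries was 2.32 to 5.18. The count of a whole gene also takes in exons outside a floxed segment, so the Tgfbr1 level does not measure the deletion. The highest KO value belonged to the second KO TGF-β + IL-4 replicate, which was also the highest KO library for Runx1, Runx3 and Cd8a, and the members' fold changes that involve that group are given without it as well.

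Short stretches around the RUNX core at the starts of the member genes are shown because 3 RUNX genes share an arrangement that few other promoters hold. Capitals mark the core (TGTGGT, or ACCACA on the other strand), and each run reads 5′ to 3′ along the gene's own strand, from RefSeq on GRCm38.p6. The Runx3 stretch is chr4:135120503-135120532 on the plus strand, Runx1 is chr16:92826025-92826054 on the minus strand, Runx2 is chr17:44814583-44814612 on the minus strand and Zbtb7b is chr3:89387743-89387772 on the minus strand.
Runx3: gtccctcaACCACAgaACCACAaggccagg
Runx1: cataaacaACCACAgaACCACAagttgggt
Runx2: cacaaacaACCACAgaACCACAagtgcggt
Zbtb7b: ctggcgaggaacTGTGGTatgtgagtgggt

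The distal promoters of Runx1, Runx2 and Runx3 each held the core as a tandem repeat of the form ACCACANNACCACA. Its first base lay 134 bases before the RefSeq start of Runx3, at base 29 after that of Runx1 and at base 24 after that of Runx2. Of all 32851 promoter windows in the table (250 bases before to 50 bases after each start, 300 bases in all), 7 held the tandem on either strand, or 0.0213%, and these 3 genes accounted for 3 of the 7. A single core was common, present in 5506 of 32851 windows (16.8%). The second Runx1 and Runx3 windows, the Cbfb window and 1 of 2 Zbtb7b windows held none, and the other Zbtb7b window held the single core printed above, 89 bases before its start. A match of letters describes the sequence and does not show that a factor was bound.

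Runx1 rose with TGF-β in WT cells, where Zbtb7b (described below) was lower but not called. In WT control Runx1 was 5.89, 6.35 and 5.50 RPKM, and in WT TGF-β it was 10.7, 11.9 and 10.3. In WT IL-4 the replicates were 7.08, 6.76 and 6.93, and in WT TGF-β + IL-4 they were 13.9, 14.2 and 14.1. The 4 WT groups did not overlap, with TGF-β + IL-4 above TGF-β, TGF-β above IL-4, and IL-4 above control. Here and below, the share of all genes whose groups separate in this way was not counted. Such statements describe the values alone. In KO the replicates were 5.21, 4.83 and 4.605 in control cultures, 5.36, 5.32 and 5.08 after TGF-β, 5.33, 5.31 and 5.30 after IL-4, and 4.75, 6.29 and 4.94 after both. The KO groups lay together at or below the WT control values. In the order of means, each KO group overlapped the next, and KO TGF-β + IL-4 overlapped WT control.

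Changes were tested with limma on log2(RPKM + 1). Calls needed both a fold above 1.5 and p under 0.01 after Benjamini-Hochberg adjustment over all genes tested. Fold changes on this scale understate those of genes with low RPKM. Whether same-numbered cultures share a mouse is not stated in the sources used here, and the p-values measure the spread between these libraries. Runx1 rose with TGF-β in WT by 0.79 ± 0.08 (log2 fold change ± SE, limma adjusted p = 0.00026, n = 3 against 3), in a comparison that called 5.71% of genes. With TGF-β + IL-4 it rose by 1.13 ± 0.07 (limma adjusted p = 3.3e-06), where 9.27% of genes were called. Against IL-4 alone, TGF-β + IL-4 raised it by 0.93 ± 0.06 (limma adjusted p = 4.3e-06), beside 9.28% of genes. In that last comparison Lyz2 was also called higher (1.47) and Ncr1 lower (-0.87), and against control Cd79b was called higher with both cytokines (1.04), and the part of these other cells in the Runx1 change was not tested. The ratio to the control of the same replicate number was 1.82, 1.87 and 1.87 with TGF-β and 2.36, 2.23 and 2.56 with both cytokines, so the increase was alike in size in all 3 replicates.

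IL-4 by itself did not carry the Runx1 increase past the threshold. Its log2 fold change was 0.20 ± 0.07 (limma adjusted p = 0.18), and limma called none of the 4 tested members where it called 1.29% of genes. At an unadjusted p under 0.05 there were 3 (Runx1, Runx3 and Zbtb7b). Adding IL-4 to TGF-β gave 0.34 ± 0.07 (limma adjusted p = 0.0083, a fold under 1.5), again with no member called, beside 3.03% of genes, and Runx1 was the 1 member at an unadjusted p under 0.05. The interaction of TGF-β with IL-4 in WT, which asks whether the combined effect differs from the sum of the single effects, was 0.14 for Runx1 with a 95% interval of -0.06 to 0.33. No member was called for that interaction, which called 1.77% of genes, and Runx3 (0.30, limma adjusted p = 0.049) was the 1 member at an unadjusted p under 0.05.

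Without the receptor, no Runx1 response passed the test. In KO, TGF-β gave 0.09 (95% interval -0.08 to 0.26) and TGF-β + IL-4 gave 0.10 (-0.16 to 0.36), or -0.01 without the second TGF-β + IL-4 replicate. No member was called in KO with TGF-β, with IL-4 or with both cytokines, comparisons in which limma called 0.0105%, 2.51% and 1.92% of all genes. For TGF-β in KO, where same-numbered cultures deviated together, a fit with the replicate number as a block called 2 genes in place of 1, neither a member. Zbtb7b with IL-4 (log2 fold change -0.26, limma adjusted p = 0.14) was the 1 member at an unadjusted p under 0.05 there. The TGF-β response of Runx1 was larger in WT than in KO by 0.70 ± 0.10 (limma interaction, adjusted p = 0.00047), an interaction called for 4.71% of genes. The TGF-β + IL-4 response was larger in WT by 1.03 ± 0.13 (limma adjusted p = 0.00024, 1.13 without that KO replicate), beside 4.18% of genes.

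Set directly against WT, KO cells had 0.93 ± 0.07 lower log2 Runx1 under TGF-β (log2 fold change -0.93, limma adjusted p = 2.4e-05), where 9.68% of genes were called. Under TGF-β + IL-4 the log2 fold change was -1.26 ± 0.10 (limma adjusted p = 9.0e-05, -1.37 without the second KO replicate), where 8.44% of genes were called. In control cultures it was -0.23 ± 0.08 (limma adjusted p = 0.089) and under IL-4 -0.33 ± 0.07 (limma adjusted p = 0.014), and neither was called. Control called 2.46% of genes and IL-4 2.99%.

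**Figure D1:**
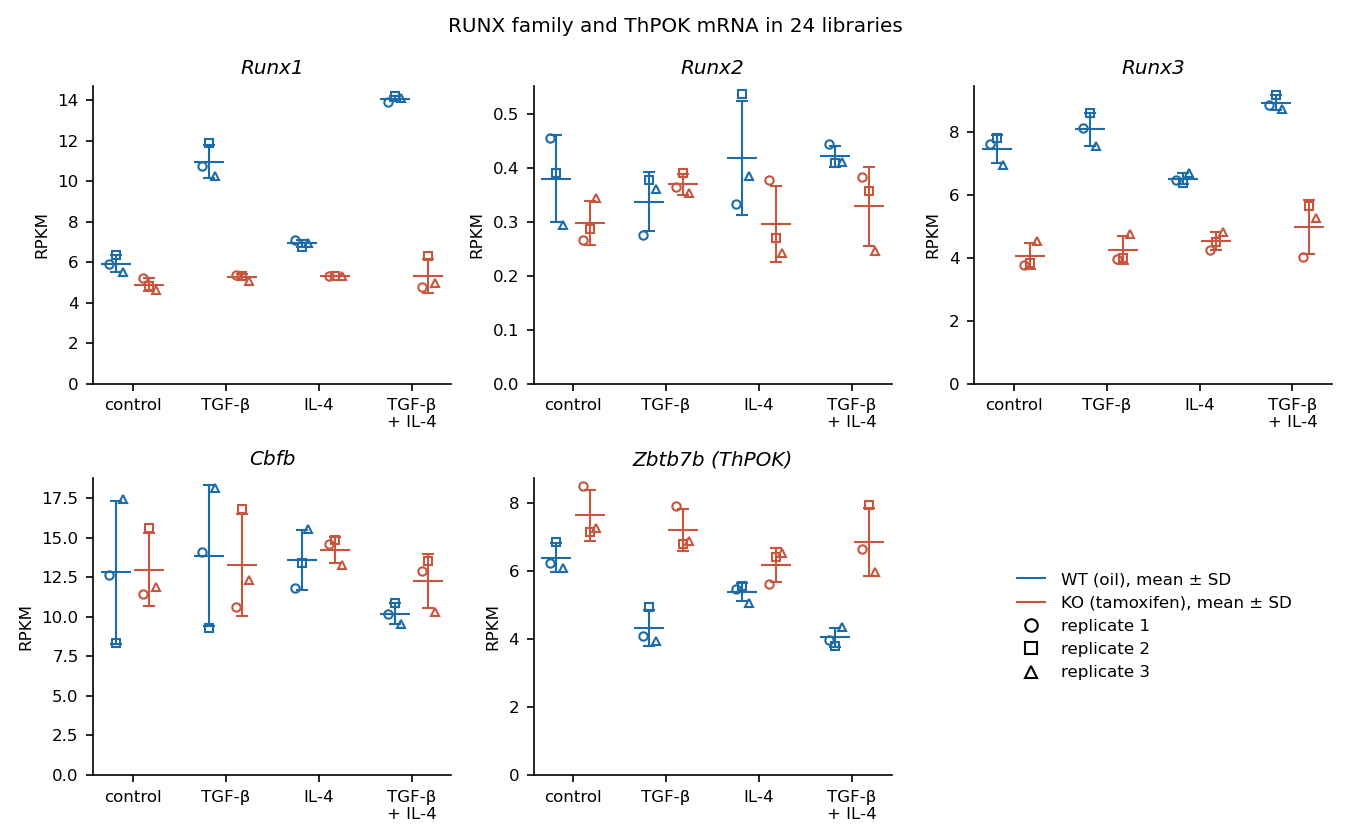
RPKM (linear axis from 0) of the 5 genes in each of 24 libraries by culture, WT in blue and KO in red, where symbols give the replicate number and the bars the mean ± SD of 3 replicates. Runx1 reaches 13.9 to 14.2 RPKM in WT TGF-β + IL-4 against 4.75 to 6.29 in KO, Runx3 is lower in every KO than in every WT library, and Runx2 stays under 0.54.

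Runx3, which in CD8 T cells and Th1 cells supports cytotoxic and interferon programmes, separated the genotypes in every culture. WT replicates were 7.62, 7.81 and 6.96 RPKM in control and 8.14, 8.603 and 7.55 with TGF-β. They were 6.48, 6.38 and 6.72 with IL-4 and 8.88, 9.20 and 8.73 with both. Among WT cultures, both cytokines together lay above TGF-β alone, and IL-4 alone lay below control, without overlap, while TGF-β and control overlapped. KO replicates were 3.79, 3.84 and 4.53 in control, 3.98, 4.005 and 4.78 with TGF-β, 4.26, 4.51 and 4.84 with IL-4, and 4.03, 5.66 and 5.28 with both. All 12 KO values (3.79 to 5.66) lay below all 12 WT values (6.38 to 9.20), a separation that does not depend on how columns are assigned to cultures. The share of all genes that separate the genotypes as fully was not counted, and Cd8a (described below) did so too.

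Runx3 was called lower in KO in 3 of 4 cultures. The log2 fold change was -0.75 ± 0.08 in control (limma adjusted p = 0.0011), -0.79 ± 0.09 with TGF-β (limma adjusted p = 0.00017) and -0.74 ± 0.11 with TGF-β + IL-4 (limma adjusted p = 0.0020). With IL-4 alone it was -0.44 ± 0.08 (limma adjusted p = 0.0053), a fold under 1.5 and not called. Leaving out any 1 WT library of the TGF-β + IL-4 comparison moved its adjusted p to between 0.0113 and 0.0129, past the threshold. Without the second KO replicate the value there was -0.82 (limma adjusted p = 0.00026). Runx3 was the only member called in control, where no TGF-β had been added.

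No cytokine comparison called Runx3 in either genotype. In WT, TGF-β + IL-4 gave 0.23 ± 0.07 (limma adjusted p = 0.021), TGF-β gave 0.10 (95% interval -0.06 to 0.27) and IL-4 gave -0.17 (-0.32 to -0.01). Against IL-4 alone, TGF-β + IL-4 was higher by 0.40 ± 0.06 (limma adjusted p = 0.00082), a fold of 1.32 and so not called. The difference between genotypes in the TGF-β response was 0.05 (-0.21 to 0.30), and in the TGF-β + IL-4 response -0.01 (-0.32 to 0.31), or 0.08 without the second KO replicate.

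The CD8 coreceptor genes did not move alike beside Runx3. Cd8a was 5.04 to 8.87 RPKM in the 12 WT libraries and 1.14 to 3.85 in KO, with no overlap, whereas Cd8b1 overlapped (11.0 to 30.4 in WT and 12.8 to 25.1 in KO). Cd8a was called lower in KO in 4 of 4 cultures, from -1.60 ± 0.08 in control (limma adjusted p = 1.4e-05) to -1.19 ± 0.13 with IL-4 (limma adjusted p = 0.00040). In bulk RNA, fewer CD8 cells and less transcript in each cell cannot be told apart, and the part of CD8 cells in the Runx3 difference was not tested. Other markers moved with the genotype in control cultures, where the B cell markers Ms4a1 and Cd79a (Cd79b was not called) and the 1 tested myeloid marker, Lyz2, were also called lower in KO, and their part in the Runx3 difference was not tested. With TGF-β, Cd79a was called lower in KO (-0.93, limma adjusted p = 0.00078), and its part in the differences of Runx1, Runx3 and Zbtb7b was not tested. The other defining myeloid markers were near 0 in both genotypes (Csf1r 0.0224 to 0.433 RPKM in WT and 0 to 0.0939 in KO, Cd14 0.0262 to 0.547 and 0 to 0.0751). NK markers (Ncr1, Klrb1c and Klra8) summed to 0.558 to 6.22 RPKM in WT and 1.66 to 4.89 in KO. In TGF-β + IL-4 cultures alone the sum was 1.73 to 2.34 in WT and 3.22 to 4.89 in KO, and Ncr1, the 1 NK marker tested there, was called higher in KO (0.74, limma adjusted p = 0.0030), and its part in the Runx1 and Runx3 differences was not tested.

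In WT cells Zbtb7b was low in the cultures where Runx1 was high. In WT control it was 6.24, 6.88 and 6.10 RPKM, with TGF-β 4.098, 4.94 and 3.94, with IL-4 5.49, 5.58 and 5.08, and with both 3.99, 3.81 and 4.36. The 2 WT groups with TGF-β overlapped each other and lay below WT IL-4, which lay below WT control. In KO it was 8.53, 7.15 and 7.26 in control and 7.94, 6.81 and 6.90 with TGF-β. With IL-4 it was 5.62, 6.43 and 6.54, and with both 6.66, 7.96 and 5.99.

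In WT the adjusted p for Zbtb7b passed but the fold stayed just under the limit. TGF-β gave a log2 fold change of -0.48 ± 0.09 (limma adjusted p = 0.0071) and TGF-β + IL-4 gave -0.55 ± 0.08 (limma adjusted p = 0.00050), a ratio of 0.682. With a pseudocount of 0.1, which compresses folds less, the latter was -0.65 and was called, as it was after median-ratio scaling (-0.60) and quantile normalization (-0.67). These were the 3 of 10 other settings that called it, and 1 of 6 omissions of a replicate did so. With the columns as headed it was -0.19 and not called. Within each replicate number the ratio to control was 0.657, 0.718 and 0.646 with TGF-β and 0.639, 0.554 and 0.716 with both. IL-4 alone gave -0.21 ± 0.07 (limma adjusted p = 0.16).

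Zbtb7b was called higher in KO in the cultures with TGF-β, and not in control or with IL-4 alone. The log2 fold change was 0.63 ± 0.09 with TGF-β (limma adjusted p = 0.0012) and 0.63 ± 0.11 with TGF-β + IL-4 (limma adjusted p = 0.0035). Both lie close to the fold limit of 1.5 (1.55 each). The TGF-β call was lost without WT replicate 3 (0.58) and without KO replicate 1 (0.57), and the TGF-β + IL-4 call in 5 of 6 omissions, with values of 0.54 to 0.68 and adjusted p up to 0.020. Without the second KO replicate it was 0.54 (limma adjusted p = 0.0019). In control the difference was 0.22 ± 0.08 (limma adjusted p = 0.12) and with IL-4 0.17 ± 0.08 (limma adjusted p = 0.21), and the differences between genotypes in the responses to TGF-β and to TGF-β + IL-4 were each -0.41 (limma adjusted p = 0.067 and 0.074), neither called. The latter was -0.31 without the second KO replicate. Cd4, which ThPOK protects from RUNX silencing, was 75.6 to 98.3 RPKM in WT and 93.2 to 122 in KO, with a highest log2 fold change of 0.54 ± 0.04 under TGF-β (limma adjusted p = 2.1e-05, under the fold limit).

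**Figure D2:**
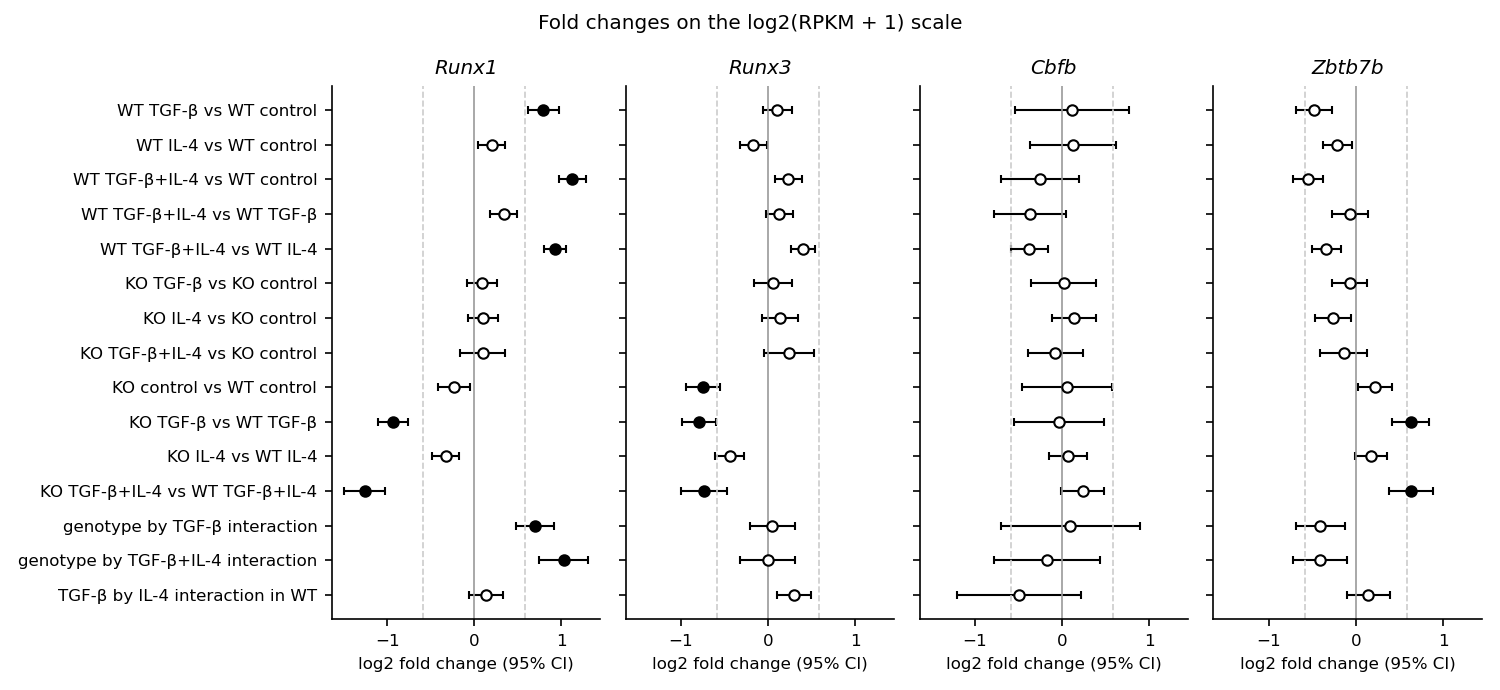
Log2 fold change (points) with its 95% interval (bars) for the 4 tested members in the 15 comparisons, on the log2(RPKM + 1) scale, where filled points were called and dashed lines mark a fold of 1.5. Runx1 has 7 filled points, Runx3 has 3, Zbtb7b has 2 and Cbfb has none.

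Cbfb, which encodes the partner subunit needed by all RUNX proteins, had the highest mean of the 5 genes over the 24 libraries and was called in no comparison. WT replicates were 12.7, 8.37 and 17.4 RPKM in control and 14.1, 9.31 and 18.2 with TGF-β. They were 11.8, 13.4 and 15.6 with IL-4 and 10.2, 10.9 and 9.54 with both. A low replicate 2 and a high replicate 3 recurred in control and TGF-β, where the SD was 4.53 and 4.44, and the ratio of TGF-β to control within a number was 1.11, 1.11 and 1.04. KO replicates were 11.4, 15.6 and 11.9 in control, 10.6, 16.8 and 12.3 with TGF-β, 14.6, 14.8 and 13.3 with IL-4, and 12.9, 13.5 and 10.3 with both. The groups overlapped widely.

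The log2 fold change of Cbfb with TGF-β + IL-4 in WT was -0.25 ± 0.20 (limma adjusted p = 0.33), with an interval of -0.70 to 0.20 that leaves room for a fall past the fold limit. It was -0.51 (limma adjusted p = 0.0053) without WT control replicate 2 and -0.02 without WT control replicate 3. Against TGF-β alone it was -0.37 ± 0.18 (limma adjusted p = 0.18). That value became -0.61 and was called (limma adjusted p = 0.0016) without the second WT TGF-β replicate. Against IL-4 it was -0.38 ± 0.09 (limma adjusted p = 0.010), with all 3 TGF-β + IL-4 values below all 3 IL-4 values.

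Runx2 was near the floor in every library. Its 24 values ranged from 0.243 to 0.537 RPKM around a median of 0.362 (the median of Runx3 was 6.02), and the gene passed the filter of a mean RPKM of at least 1 in no comparison. Group means ran from 0.296 ± 0.071 (KO IL-4) to 0.422 ± 0.020 (WT TGF-β + IL-4), and all neighbouring groups in that order overlapped.

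RPKM is per length, so the members' levels can be set side by side. Over all 24 libraries the mean level was 12.9 for Cbfb, 7.33 for Runx1, 6.11 for Runx3, 6.01 for Zbtb7b and 0.357 for Runx2. In WT control Runx3 stood above Runx1 in all 3 replicates, and in WT TGF-β + IL-4 Runx1 stood above Runx3, and above Cbfb, in all 3. In the 12 KO libraries the mean was 6.98 for Zbtb7b, 5.19 for Runx1 and 4.46 for Runx3, so the order differed between groups.

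Across the 24 libraries, on the log2(RPKM + 1) scale, Runx1 and Zbtb7b had a Pearson correlation of -0.86, and Runx1 and Runx3 of 0.84. Within the 12 WT libraries these were -0.88 and 0.82, and within the 12 KO libraries 0.25 and 0.43. Runx3 and Cd8a had a correlation of 0.94 over all libraries, 0.53 within WT and 0.71 within KO, and Zbtb7b and Cd4 of 0.89, 0.87 and 0.63. These points share cultures, replicates and genotype, and the correlations are descriptions of these libraries.

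**Figure D3:**
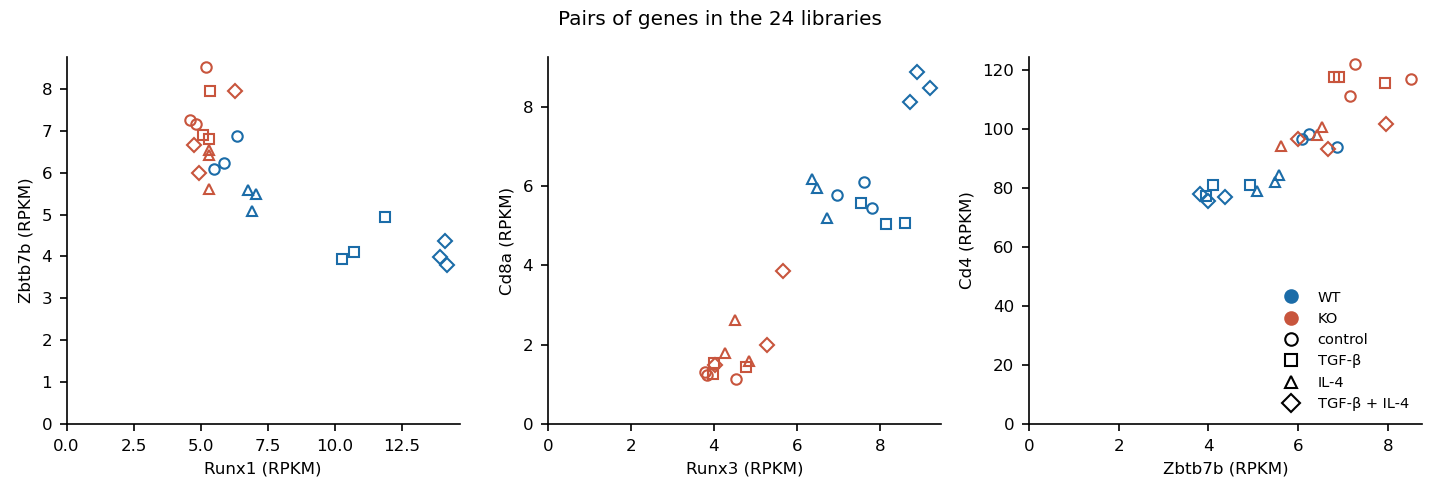
RPKM of 3 gene pairs in the 24 libraries on linear axes from 0, WT in blue and KO in red, with the culture given by the symbol. Among WT libraries those with more Runx1 have less Zbtb7b, Cd8a and Runx3 are both lower in all KO than in all WT libraries, and Cd4 follows Zbtb7b.

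Among the 6782 genes (6783 for Runx2) with a mean of at least 5 RPKM, those most like Runx1 over the 24 libraries on the log2 scale were Fmnl3 (r = 0.983), Tmem184b (0.974) and Ctsw (0.970), and the most opposite was Utf1 (-0.967). Most like Runx3 were Nkg7 (0.960), Dhcr7 (0.957) and Plscr3 (0.956), with Zwilch the most opposite (-0.955). Nkg7 encodes a cytotoxic granule protein. Most like Zbtb7b were Crtam (0.914), Arc (0.912) and B4galnt1 (0.912), opposite Rap1gds1 (-0.927). Cbfb was followed most closely by Ube2e3 (0.905), Usp1 (0.898) and Strn4 (0.893), opposite Rhog (-0.780). For Runx2 no gene exceeded 0.660 (Txndc17, then Rnf139 at 0.649 and Fam174a at 0.647, opposite Eci1 at -0.734).

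Of 17 listed RUNX partners and corepressors, 9 were tested in WT TGF-β + IL-4 against control and 1 rose, none fell (11.1%, beside 9.27% of all genes). It was Hipk2, a kinase of transcription regulators, at 3.21, 2.87 and 3.26 RPKM in control and 9.47, 7.10 and 9.49 with both cytokines (log2 fold change 1.23 ± 0.11, limma adjusted p = 3.4e-05). The list median was 0.31, beside 0.03 over all genes. None of the 9 was called with TGF-β alone (beside 5.71% of all genes) and 1 rose with IL-4 (beside 1.29%). None was called in KO with TGF-β + IL-4 (beside 1.92%).

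Of 14 other regulators of the CD4 or CD8 lineage, 13 were tested and 3 rose with TGF-β + IL-4 in WT (23.1%, beside 9.27% of all genes), with a list median of 0.15. Socs1, a feedback inhibitor of cytokine signals, rose by 0.89 ± 0.05 (limma adjusted p = 2.5e-06). Bcl11b, which holds T cell identity, rose by 0.86 ± 0.06 (limma adjusted p = 9.7e-06), and Gata3, which acts upstream of Zbtb7b in the thymus, by 0.62 ± 0.06 (limma adjusted p = 7.9e-05). Mean Gata3 in WT was 21.2 RPKM in control, 10.6 with TGF-β, 71.8 with IL-4 and 33.0 with both. It was thus lower with TGF-β than without it, both with and without IL-4. In KO its mean was 8.91 in control, 8.26 with TGF-β, 67.1 with IL-4 and 69.4 with both. Mean Socs1 in WT was 134 RPKM in control, 135 with TGF-β, 237 with IL-4 and 250 with both. In KO the Socs1 means were 58.0, 58.3, 180 and 192 in that order, so Socs1 was higher with IL-4 alone as well. With TGF-β alone 2 of 13 fell and none rose (beside 5.71% of all genes called). With IL-4 alone 3 rose and none fell (beside 1.29%), and in KO with both cytokines 3 rose and none fell (beside 1.92%).

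Genes known as bound or controlled by RUNX or ThPOK in T cells moved in both directions. Of 26 listed, 25 were tested in WT TGF-β + IL-4 against control, where 7 rose and 8 fell, 60.0% of those tested beside 9.27% of all genes, and the median was -0.18. Among the largest changes were those of Itgae (the αE integrin), which rose by 2.86 ± 0.10, Foxp3, which rose by 2.37 ± 0.07, and Gzmb (granzyme B), with a log2 fold change of -2.12 ± 0.10 (limma adjusted p between 6.4e-08 and 9.8e-07). Itgae was 0.363, 0.206 and 0.196 RPKM in WT control and 7.001, 8.69 and 8.76 with both cytokines. It passed the filter of a mean RPKM of at least 1 only through the cultures with both cytokines. Its call could therefore only be a rise, and it counts among the 7 that rose. With TGF-β alone 5 rose and 10 fell (beside 5.71% of all genes called), and with IL-4 alone 2 rose and 4 fell (beside 1.29%). In KO with both cytokines 1 of 23 rose and 2 fell (beside 1.92%). The list was drawn up knowing earlier results of these data, and its share is no independent evidence of RUNX activity.

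Open chromatin at the 5 genes was compared as the presence of DHSs in each library's own list, on mm9. The lists differed in length (44298 DHSs for WT control, 33880 for WT with both cytokines, 33665 for KO control and 27145 for KO with both cytokines), and with 1 library per condition no difference was tested. Over the genes and 10 kb on each side there were 54, 40, 39 and 28 DHSs in that order. Among the same number of strongest DHSs from each list (27145) they were 29, 31, 30 and 28.

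Runx1 (chr16:92601712-92826311, minus strand) held 22, 19, 14 and 12 DHSs. Among the same number of strongest DHSs from each list it held 11, 17, 12 and 12, so WT control went from the most to the fewest. Its distal promoter was a DHS in all 4 lists, with a fold enrichment over background of 5.77, 4.63, 4.14 and 5.22, and the tandem RUNX core printed above lay inside it in each. The proximal promoter, which starts the shorter protein, held a DHS just before it and 1 in the exon in all 4 lists (fold enrichment 3.45 to 5.07 and 4.86 to 5.76). The remaining sites were mostly intronic. Of the 22 WT control DHSs, 8 had no overlapping DHS in KO control, and of the 19 in WT TGF-β + IL-4, 7 had none in KO TGF-β + IL-4. Over all DHSs 30.8% and 30.6% were absent from the KO list in this way.

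Runx3 (chr4:134676567-134733905, plus strand) had 7, 5, 6 and 3 DHSs. Its distal promoter DHS was among the stronger of each list, with a fold enrichment of 10.3, 8.56, 7.55 and 7.16 (within the top 18.8% of each list), and held the tandem core in all 4. The proximal start had a DHS in WT control alone (3.26). Runx2 (chr17:44632936-44951746, minus strand) had 16, 10, 11 and 7, with none over the tandem core of its distal promoter in any list and 1 at a proximal start in 3 of 4.

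Cbfb (chr8:107694574-107741886, plus strand) had 3, 3, 4 and 3, with a promoter DHS of 11.7, 10.1, 8.2 and 7.49. A second strong one lay past the end of the gene, 54.45 kb from its start, at 11.5, 13.8, 10.1 and 11.0. Zbtb7b (chr3:89181566-89198698, minus strand) had 6, 3, 4 and 3, with its promoter DHS at 5.50, 5.85, 4.95 and 5.40 in all 4 lists. The stretch with the single RUNX core printed above, at another start, lay in no DHS.

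Over the 5 genes, 17 of 54 WT control DHSs (31.5%) were absent from KO control and 15 of 40 in WT TGF-β + IL-4 (37.5%) from KO TGF-β + IL-4. With both cytokines 4 of 40 (10.0%) were absent from WT control, beside 10.8% of all DHSs, and 18 of 54 (33.3%) in WT control had no counterpart with both cytokines, beside 31.9%. These shares lie near those of all DHSs, and the largest gap (37.5% beside 30.6%) rests on 15 sites.

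**Figure D4:**
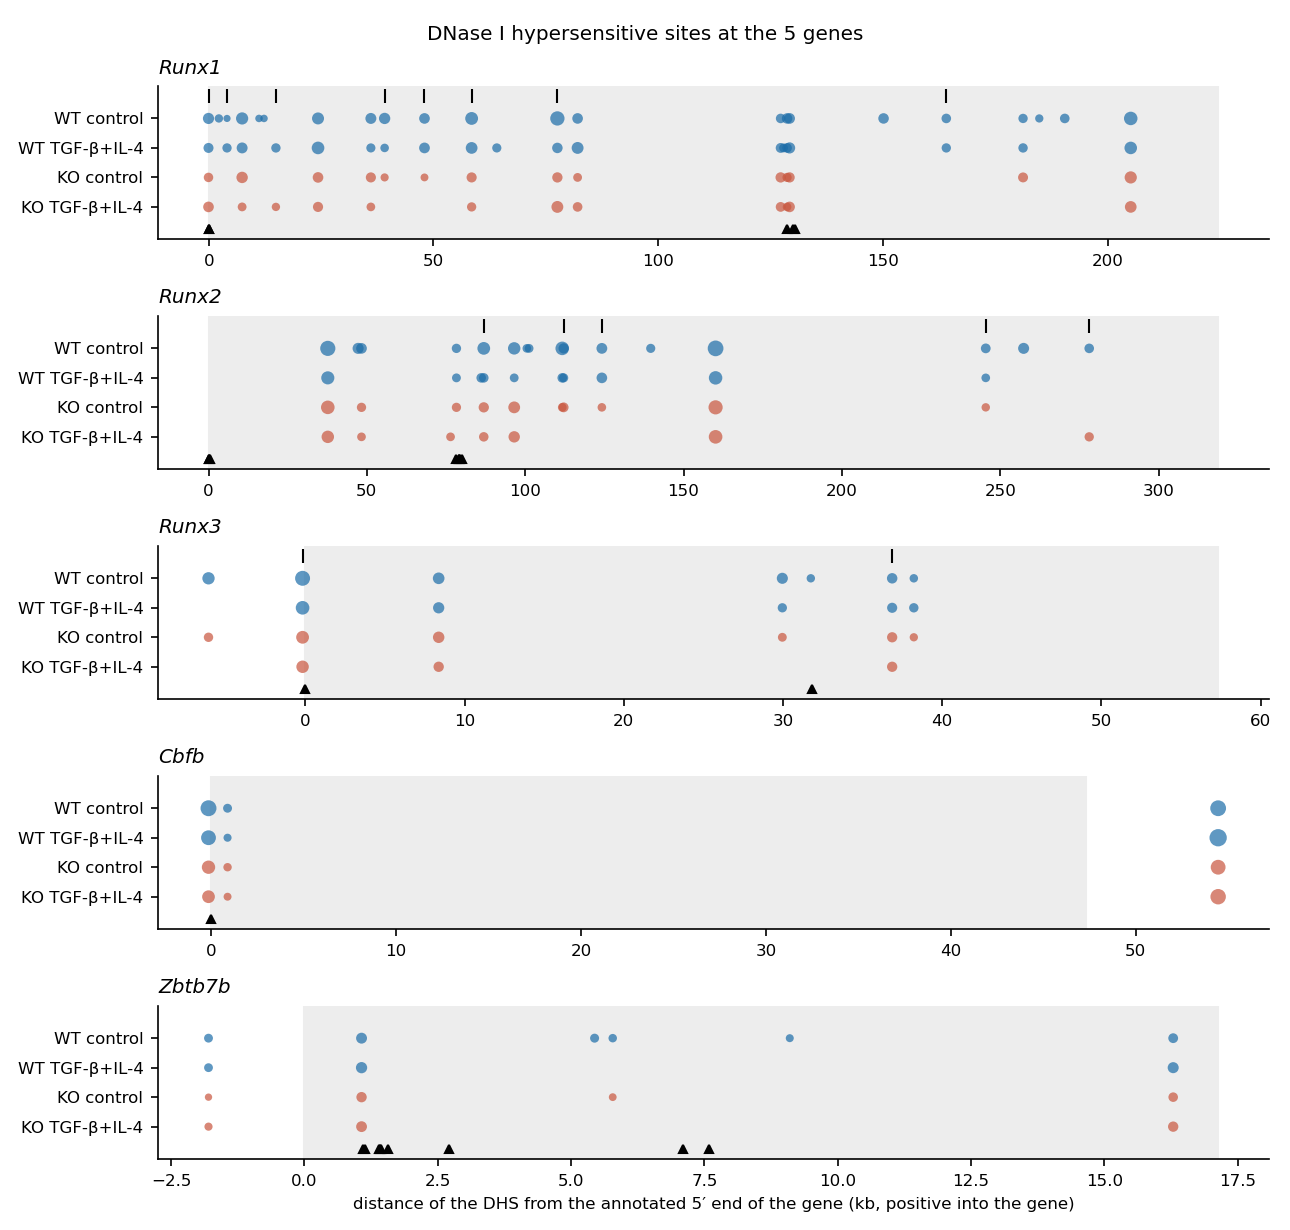
DHSs at the 5 genes in the 4 lists, by distance in kb from the annotated start of the gene (the grey box is the gene, triangles are starts of protein-coding transcripts, larger dots have a higher fold enrichment and ticks mark sites with a RUNX core within 100 bp of the summit). The distal promoters of Runx1 and Runx3 are open in all 4 libraries, and that of Runx2 has no DHS.

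The RUNX core TGTGGT, on either strand and within 100 bp of the summit, was found in 14 of 54 WT control DHSs at the 5 genes (25.9%), 13 of 40 with both cytokines (32.5%), 11 of 39 in KO control (28.2%) and 9 of 28 in KO with both (32.1%). Over whole lists the shares were 20.6%, 19.8%, 18.8% and 17.7%. The tandem sites of Runx1 and Runx3 count among them. These shares rest on 9 to 14 sites and are given as descriptions.

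The Runx3 promoter DHS and the 2 intronic Runx1 DHSs that held 2 cores and were called in all 4 lists are shown to place the cores in their surroundings, as the 201 bases around the strongest summit on mm9, on the strand of the gene, with cores in capitals. They are chr4:134676284-134676484 (plus strand) for Runx3, and chr16:92748641-92748841 (77.57 kb into the gene) and chr16:92767721-92767921 (58.49 kb into the gene), both on the minus strand, for Runx1.
Runx3 promoter: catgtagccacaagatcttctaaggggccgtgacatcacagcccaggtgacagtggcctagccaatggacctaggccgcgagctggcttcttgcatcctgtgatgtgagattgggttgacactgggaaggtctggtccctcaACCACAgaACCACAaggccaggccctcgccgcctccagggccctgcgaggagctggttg
Runx1 intron, 77.57 kb: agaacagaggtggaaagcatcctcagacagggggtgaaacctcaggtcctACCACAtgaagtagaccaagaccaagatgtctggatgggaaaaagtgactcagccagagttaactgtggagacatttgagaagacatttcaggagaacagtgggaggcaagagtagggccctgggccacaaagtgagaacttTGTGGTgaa
Runx1 intron, 58.49 kb: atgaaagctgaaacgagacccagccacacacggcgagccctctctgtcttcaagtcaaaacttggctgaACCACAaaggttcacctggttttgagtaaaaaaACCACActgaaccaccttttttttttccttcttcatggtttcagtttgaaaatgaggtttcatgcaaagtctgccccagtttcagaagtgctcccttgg
The Runx1 site at 58.49 kb had a fold enrichment of 7.59 (WT control), 6.36 (WT, both cytokines), 4.73 (KO control) and 3.97 (KO, both cytokines). The site at 77.57 kb had 9.43, 5.07, 4.89 and 6.50. The first was lower in both KO lists than in both WT lists and the second was not, and neither difference could be tested with 1 library each.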

How the data were processed

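RNA was measured in 24 libraries (8 groups of 3) and open chromatin in 4 DNase-seq libraries. Reads were mapped by the authors with Bowtie2 (mm9) and freed of poorly mapped and redundant ones, and the deposited RNA values are RPKM per gene calculated with edgeR. For each DNase-seq library they deposited narrow peaks called by MACS, with the fold enrichment (a ratio over background) and −log10 p and q values. Each DNase-seq list came from 1 library.

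RPKM columns were read by position in library-number order, because the headings conflict with the study's read counts. Genes with a mean of at least 1 RPKM in the fit were tested on log2(RPKM + 1) with limma 3.58.1 in R 4.3.3, in only the groups compared, with calls at a fold over 1.5 and p under 0.01 after Benjamini-Hochberg adjustment. The script was tested on simulated data. DHSs were assigned to a gene and 10 kb on each side (GENCODE coordinates on mm9) and counted as shared when they overlapped. Promoter sequences were from RefSeq (GRCm38.p6). Tables and figures were made with Python 3.11.15, pandas 2.3.3 and matplotlib 3.10.9.

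Named genes were the 5 members, the 3 most alike and the 1 most opposite gene for each, and at most 4 called genes with the largest change from each list. Members and lists were chosen with earlier results of these data known. Alternatives were the columns as headed, another pseudocount, filter, scaling, threshold or variance moderation, all libraries in 1 fit, the 8 listed WT libraries, a replicate block and each replicate left out. For DHSs they were a −log10 q of at least 5, equal numbers of DHSs, the gene body alone and whole DHSs for the motif. The sources used here do not state that same-numbered cultures share a mouse. RPKM keeps no total count, so depth is given relative to 1 library. Some genes of the lists are not reported here by name.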

Additional observations from a re-analysis of the deposited data

Results flagged for a closer look

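The Runx1 responses differed between genotypes by a test of the difference itself. For TGF-β the response in WT exceeded that in KO by 0.70 on the log2 scale, and for TGF-β + IL-4 by 1.03 (limma interaction, adjusted p = 0.00047 and 0.00024). All 3 WT replicates stood above their control range in both cultures.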

How the results depend on the processing

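Of 251 settings of the members' called fold changes and of their values in WT TGF-β + IL-4 against control, 223 kept the direction and the side of the threshold, 23 lost a call (12 of these with the columns as headed), 4 gained one and 1 turned direction. That was Cbfb in WT TGF-β + IL-4 against control, at 0.11 with the columns as headed. Fold changes outside these, none called, turned direction more often (Runx3 in 7 settings of genotype by TGF-β + IL-4, Cbfb in 5 of genotype by TGF-β), and Cbfb in WT TGF-β + IL-4 against TGF-β gained a call in 2 settings. Of 286 settings of the other results, 221 stayed alike. Where a result moved, the cause was not tested beyond what each setting changes by construction.

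The numbers of genes called by limma moved as follows. With the columns as headed, 0 genes were called in every comparison except KO against WT control, with 7 (37 to 3284 genes were at an unadjusted p under 0.05 in the others), and the WT levels moved to 7.90 RPKM (control) and 10.4 (TGF-β + IL-4) for Runx1, to 5.28 and 4.46 for Zbtb7b, and with TGF-β + IL-4 to 0.385 for Runx2, 7.67 for Runx3 and 14.4 for Cbfb. With a mean of at least 5 RPKM, fewer genes tested, the calls in WT were 342 (TGF-β), 80 (IL-4) and 580 (both), in KO 0 (TGF-β) and 153 (IL-4), in KO against WT 149 (control), 591 (TGF-β) and 550 (both), and 284 for the interaction of genotype with TGF-β. With no filter they were 83 (WT IL-4), 194 (WT both against TGF-β), 0, 154 and 99 (KO TGF-β, IL-4 and both), 149 (KO against WT with IL-4) and 106 (TGF-β by IL-4). In the 8 listed WT libraries these were 73 (IL-4), 452 (both against TGF-β) and 91 (TGF-β by IL-4). In KO, 1 fit of all 24 libraries called 6 genes with TGF-β and 278 with both, an adjusted p under 0.05 called 3 with TGF-β (and 284 for TGF-β by IL-4 in WT), and median-ratio or quantile scaling called 0 with TGF-β. Where KO TGF-β had 0 calls under settings other than the headings, up to 617 genes were at an unadjusted p under 0.05.

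Leaving out 1 replicate gave ranges of 500 to 568 (WT TGF-β), 73 to 120 (WT IL-4), 858 to 1001 (WT both), 229 to 443 (both against TGF-β), 851 to 974 (both against IL-4), 0 to 0, 165 to 276 and 81 to 235 (KO TGF-β, IL-4 and both), 161 to 230, 868 to 945, 201 to 285 and 626 to 1116 (KO against WT in control, TGF-β, IL-4 and both), 412 to 448 and 313 to 681 (genotype by TGF-β and by both) and 107 to 186 (TGF-β by IL-4).

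With a replicate block, KO TGF-β called 2 genes and KO TGF-β + IL-4 called 88, and the other 9 paired fits stayed within 1.5 times. Correlations of same-numbered deviations ran from -0.0886 to 0.553 in WT and from -0.297 to 0.415 in KO, with medians of 0.0621 and 0.188 (-0.0319 and -0.123 for other numbers), so the numbers were not taken to pair the samples throughout. All 3 exceeded 0.1 for KO control with KO TGF-β (0.31 to 0.351) and for KO IL-4 with KO TGF-β + IL-4 (0.266 to 0.415). In the 11 comparisons fitted with it, the block changed no call of a member. With equal numbers of DHSs in each list, WT control had 29 at the 5 genes in place of 54. Relative depth and 1 DNase-seq library per condition limit what DHS differences can show.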
